A study of Rattus norvegicus with 6 samples.

Results

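Macrophages that enter an injured nerve are often described along an axis between an inflammatory (M1) and a repair-associated (M2) state, and 4 genes are widely used to place cells on it. The 4 genes considered were Nos2, Arg1, Il10 and Tgfb1, chosen by their Ensembl gene IDs out of 30562 IDs in the count table. Of these, 3 were found, namely Arg1 (ENSRNOG00000013304), Il10 (ENSRNOG00000004647) and Tgfb1 (ENSRNOG00000020652). Nos2 (ENSRNOG00000011023) was not analysed here, so all 3 genes described are from the M2 side of the axis. The symbols come from the rule that chose the members, since the files give IDs only.

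The samples were facial nerve tissue of wild type rats on day 14 after injury. In 3 libraries the nerve came from the facial nerve injury (FNI) model, with no treatment named in the labels. In the other 3 the injured nerve had received C-Gel-light, which the series title ties to a hydrogel that holds the green alga Chlorella and releases oxygen in light. All 6 libraries therefore carried the injury, and neither uninjured nerve nor gel or light given singly was analysed here. Strain, age, sex and the number of animals behind each library are not given in the labels, and the p-values therefore reflect how far these libraries vary, which may be technical variation only.

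Nos2 encodes the inducible nitric oxide synthase, which makes nitric oxide from arginine. Arg1 encodes arginase, which splits the same amino acid into ornithine and urea, and ornithine feeds the synthesis of polyamines and proline. Il10 encodes interleukin 10, a secreted cytokine that signals through STAT3 and restrains inflammatory gene expression in macrophages. Tgfb1 encodes transforming growth factor beta 1, which is secreted in a latent form, signals through SMAD proteins after activation, and drives matrix production in fibroblasts. After nerve injury it is also known to act on Schwann cells. None of these genes is expressed by macrophages alone: Tgfb1 in particular is made by many cells of a nerve. In whole tissue, fewer cells of a type and less RNA per cell cannot be told apart.

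Library totals ran from 22957382 to 28997855 counts, and the TMM factors, which correct library sizes for composition, were 0.87 to 0.98 with C-Gel-light and 1.05 to 1.14 in FNI. Levels are given as CPM, the count per 1000000 of the TMM-scaled library total. Of 15581 genes that passed the filter on low counts, 2301 (14.8%) passed a Benjamini-Hochberg adjusted p of 0.05 in edgeR's quasi-likelihood test of the group difference, 1200 of them (7.7%) as falls under C-Gel-light. With library totals alone the share of called genes that were higher with C-Gel-light moved from 47.8% to 16.4%, and the median log2 fold change of all tested genes moved from -0.01 to -0.26. The labels give each library a batch number of its own, without saying what it marks, so batch and group cannot be told apart. Markers of macrophages, Schwann cells and other cell types were not checked, because no table used here pairs the gene IDs with names.

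Tgfb1 fell in C-Gel-light nerve, Arg1 did not pass the test, and Il10 was too sparse to pass the filter on low counts over all libraries. Of the 2 members tested, 1 was called, against 14.8% of all tested genes, a share too coarse over 2 genes to be read as a result about the group.

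Tgfb1 was the abundant member. The FNI libraries, replicates 1 to 3, held 1838, 1101 and 1363 counts of it. The C-Gel-light libraries in the same order held 1033, 681 and 750. Scaled, these were 65.7, 45.1 and 52.1 CPM in FNI and 41.1, 27.7 and 30.5 CPM with C-Gel-light. The groups did not overlap, and C-Gel-light replicate 1 and FNI replicate 2 came closest to each other. Groups that do not overlap in this direction were found for 20.8% of the tested genes, and in either direction for 39.1%.

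Tgfb1 averaged 54.3 ± 10.5 CPM in the injury model but 33.1 ± 7.1 CPM after C-Gel-light (SD over libraries, n = 3 per group). The log2 fold change, C-Gel-light over FNI, was -0.71 (SE 0.19, 95% interval -1.17 to -0.26, adjusted p = 0.049 by edgeR), or 1.64-fold lower. The two-sided exact permutation test on CPM gave p = 0.1, the smallest that 3 against 3 libraries allow. The fall was thus past the threshold by a narrow margin: among the 2301 called genes, 48 had a larger adjusted p. It was also of moderate size, since 798 of the 1200 genes that fell did so by more, and their median fall was 2.01-fold.

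The call on Tgfb1 was lost without any 1 of 4 of the 6 libraries. Leaving out 1 library also cut the calls over all genes, from 2301 to between 797 and 1726. Without C-Gel-light replicate 2 or 3 its log2 fold change was -0.60 or -0.65 (adjusted p = 0.12 for both by edgeR), and without FNI replicate 1 or 3 it was -0.56 or -0.74 (adjusted p = 0.13 and 0.11 by edgeR). Without C-Gel-light replicate 1 or FNI replicate 2, the libraries nearest to the other group, it was -0.89 or -0.83 (adjusted p = 0.039 and 0.048 by edgeR). RLE factors in place of TMM gave -0.70 with an adjusted p of 0.052 by edgeR, and limma-voom without the filter on low counts gave -0.72 with an adjusted p of 0.0501. With library totals the fall was larger, at -0.97 (adjusted p = 0.01 by edgeR), on a scale on which the median gene also fell by 0.26.

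Counting error was a minor part of the spread of Tgfb1. The 95% counting intervals were 62.8 to 68.8 CPM in FNI replicate 1 and 42.5 to 47.8 CPM in FNI replicate 2, so these libraries of one group differed beyond them. Within groups the chi-square per degree of freedom, which is near 1 for counting error alone, was 53.1 in FNI and 37.9 with C-Gel-light. Relative to the mean, the SD was 19.3% and 21.4%.

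**Figure D1:**
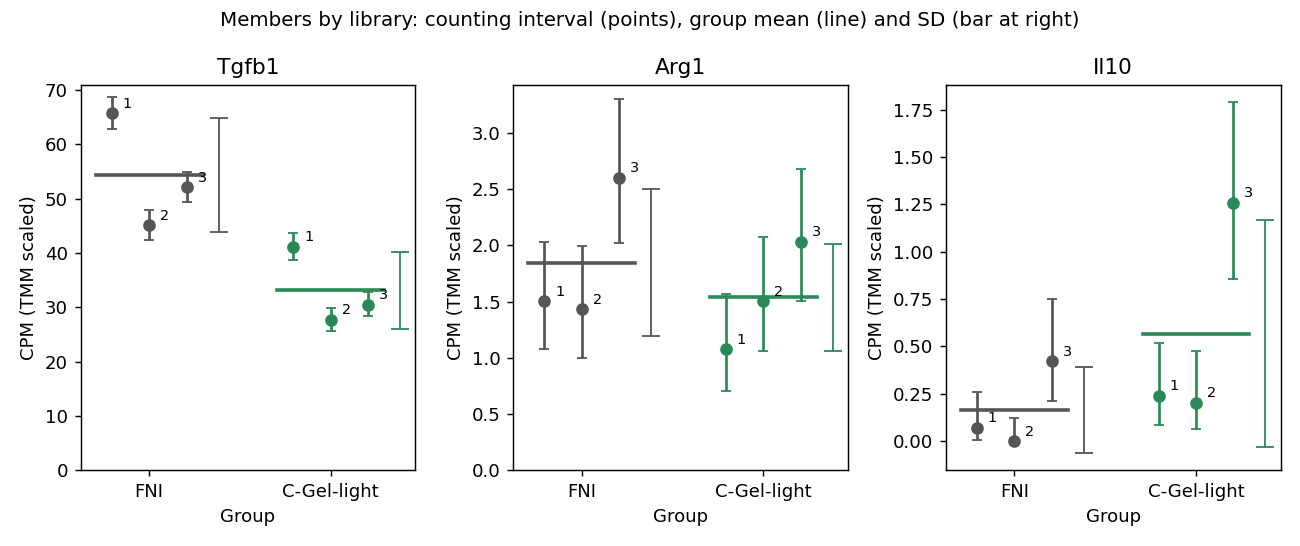
CPM of Tgfb1, Arg1 and Il10 (vertical axes, a scale of its own per gene) in each library, FNI in grey and C-Gel-light in green. Numbers are replicates, bars on points are exact 95% counting intervals (for the 0 of Il10, the limit of 3 counts), horizontal lines are group means and the bars at the right of each group are SDs over 3 libraries. For Tgfb1 the FNI libraries (45.1 to 65.7 CPM) lie above those with C-Gel-light (27.7 to 41.1 CPM), while the groups overlap for Arg1 and Il10.

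Arg1 was detected in every library at a low level. FNI replicates 1 to 3 gave 42, 35 and 68 counts, and C-Gel-light replicates 1 to 3 gave 27, 37 and 50. Scaled, these were 1.5, 1.43 and 2.60 CPM in FNI and 1.08, 1.5 and 2.03 CPM with C-Gel-light. The groups overlapped: in 4 of 9 pairings of a C-Gel-light with an FNI library the C-Gel-light value was the higher one. The highest library was FNI replicate 3 and the lowest was C-Gel-light replicate 1.

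Arg1 averaged 1.85 ± 0.66 CPM in the injury model and 1.54 ± 0.48 CPM after C-Gel-light (SD over libraries, n = 3 per group; exact permutation p = 0.7, two-sided). On the log2 scale edgeR put the change at -0.26 with an SE of 0.38 and an adjusted p of 0.67. The 95% interval of -1.15 to 0.62 ran from 0.45 to 1.54 times the FNI level and so held both no change and a fall of the size seen for Tgfb1. The sign depended on a single library, with a log2 fold change of 0.067 without FNI replicate 3 and -0.054 without C-Gel-light replicate 1. Counting error alone left wide intervals at this depth: 0.71 to 1.56 CPM in C-Gel-light replicate 1 and 2.02 to 3.30 CPM in FNI replicate 3. Libraries of a group differed by more than counting error, with a chi-square per degree of freedom of 6.06 in FNI and 3.72 with C-Gel-light. The medians over the tested genes were 5.10 in FNI and 6.90 with C-Gel-light, so this spread was not particular to Arg1.

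Il10 was at the edge of detection. FNI replicates 1 to 3 gave 2, 0 and 11 counts, and C-Gel-light replicates 1 to 3 gave 6, 5 and 31. The 0 in FNI replicate 2 allows up to 3 counts, or 0.123 CPM, at that depth, as a one-sided limit for counting error. The levels were 0.0715, 0 and 0.421 CPM in FNI and 0.239, 0.203 and 1.26 CPM with C-Gel-light. In 7 of 9 pairings the C-Gel-light library was the higher one, and the groups overlapped because FNI replicate 3 exceeded C-Gel-light replicates 1 and 2.

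Il10 averaged 0.164 ± 0.225 CPM in the injury model and 0.567 ± 0.6 CPM after C-Gel-light (SD over libraries, n = 3 per group), a ratio of 3.46 or 1.79 on the log2 scale. In both groups the SD exceeded the mean, and the two-sided exact permutation p was 0.4. C-Gel-light replicate 3 alone held 73.8% of the 42 counts of its group, and FNI replicate 3 held 84.6% of the 13 counts of the FNI group. Without C-Gel-light replicate 3 the log2 ratio of the means was 0.43, and without FNI replicate 3 it was 3.99. The latter is against 2 counts in 2 libraries, for which the pooled ratio was 14.8 with a 95% counting interval of 3.85 to 126.2. It was 1.2 without FNI replicate 2, 1.43 without FNI replicate 1, and 2.16 and 2.19 without C-Gel-light replicates 1 and 2.

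Pooled counts gave Il10 a ratio of 3.41 with a 95% counting interval of 1.80 to 6.93, but that interval covers counting error only. The libraries of a group differed by more than that, with a chi-square per degree of freedom of 7.91 in FNI and 15.7 with C-Gel-light. When the filter on low counts was dropped, so that 22044 genes were tested, edgeR gave Il10 a log2 change of 1.75 with an SE of 1.14 and an adjusted p of 0.41. Its 95% interval of -0.86 to 4.36 spans both a fall and a large rise, so no difference in Il10 beyond the spread between libraries was detected, and its absence is not shown.

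Levels of different genes were compared per length, as FPKM. The lengths implied by the authors' FPKM values were 1456 bases for Tgfb1, 1507 for Arg1 and 1288 for Il10. Tgfb1 was at 48.8, 32.6 and 40.8 FPKM in the FNI replicates, in order of number, and at 24.5, 17.2 and 20.6 FPKM in those given C-Gel-light. Arg1 was at 1.08, 1.00 and 1.97 FPKM in FNI and 0.618, 0.901 and 1.32 FPKM with C-Gel-light. Il10 was at 0.0601, 0 and 0.372 FPKM in FNI and 0.161, 0.143 and 0.961 FPKM with C-Gel-light. The order Tgfb1, Arg1, Il10 held in each of the 6 libraries, and Il10 came nearest to Arg1 in C-Gel-light replicate 3.

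Over the 6 libraries the mean level was 30.7 FPKM for Tgfb1, 1.15 FPKM for Arg1 and 0.283 FPKM for Il10. Among 22044 genes with a count in any library, 91.9% had a lower mean FPKM than Tgfb1, 40.8% a lower one than Arg1 and 28.8% a lower one than Il10. FPKM is scaled by library totals without TMM factors, so comparisons between groups on it include the shift of the median gene given above.

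**Figure D2:**
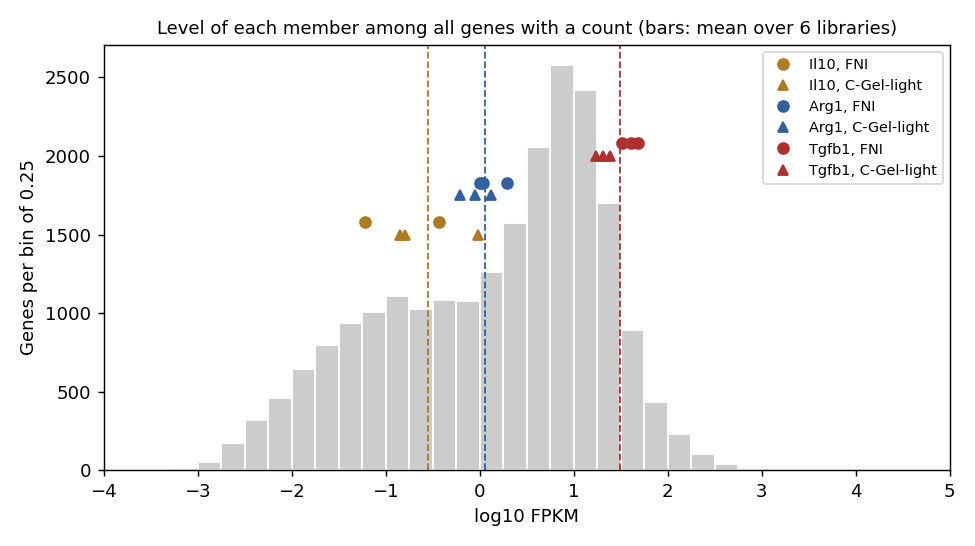
Distribution of the mean log10 FPKM of 22044 genes (bars, number of genes per bin of 0.25), with the log10 FPKM of Il10, Arg1 and Tgfb1 in each library above it (circles FNI, triangles C-Gel-light; the height of the points has no meaning, and the library with 0 for Il10 is not drawn). Dashed lines mark each gene's mean, which lies above 28.8% of genes for Il10, 40.8% for Arg1 and 91.9% for Tgfb1.

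Within a library the level of Tgfb1 was 15.5 to 45.3 times that of Arg1. FNI replicates 1 to 3 had ratios of 45.3, 32.6 and 20.7, and C-Gel-light replicates 1 to 3 had ratios of 39.6, 19.1 and 15.5. The group means, 32.9 ± 12.3 for the injury model and 24.7 ± 13.0 after C-Gel-light (SD over libraries, n = 3), differed by less than the SD of either group. For Il10 relative to Arg1, the ratios were 0.0557, 0 and 0.189 in the FNI replicates and 0.26, 0.158 and 0.725 in those given C-Gel-light. These ranges overlapped too, with FNI replicate 3 above C-Gel-light replicate 2. No test was made of these ratios. A ratio of an M1 to an M2 gene, which Nos2 to Arg1 would give, was not analysed here.

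**Figure D3:**
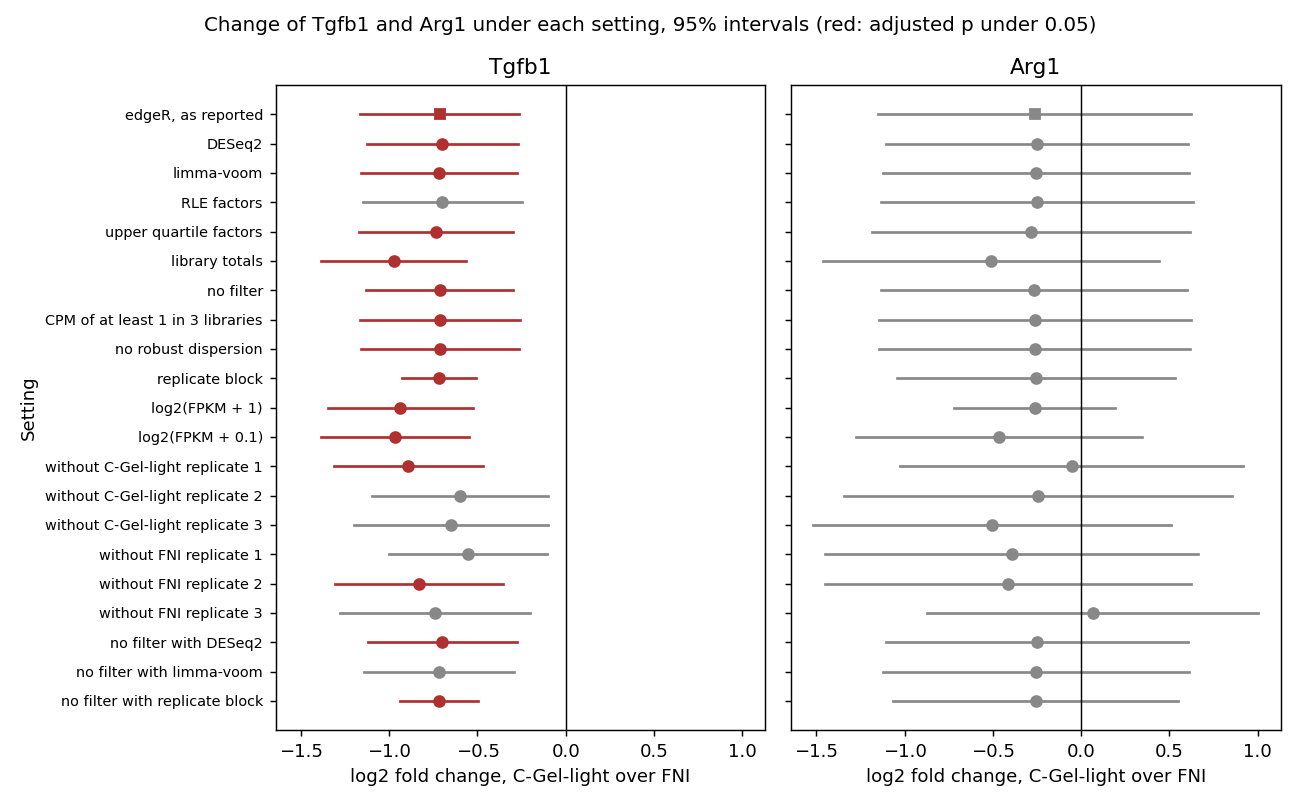
Log2 fold change of Tgfb1 (left) and Arg1 (right), C-Gel-light over FNI (horizontal axes), in the reported fit (square) and 20 other settings (circles), with 95% intervals as lines; red marks an adjusted p under 0.05. Tgfb1 was below 0 in all 21 and past the threshold in 15, and Arg1 passed it in none, with 1 estimate above 0.

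The genes with the pattern most like that of Tgfb1 over the 6 libraries are given by ID. Among 13037 genes whose log2 CPM averaged 1 or more, ENSRNOG00000016852 and ENSRNOG00000009899 had the highest Pearson correlations of log2 CPM with it. ENSRNOG00000016852 (r = 0.996) was at 4.15, 3.07 and 3.63 CPM in the FNI replicates and 2.83, 1.91 and 2.15 CPM in those given C-Gel-light. Its log2 change of -0.65 had an SE of 0.26 and an adjusted p of 0.13 by edgeR, so the gene most like Tgfb1 in pattern did not itself pass the test. ENSRNOG00000009899 (r = 0.995) was at 65.6, 50.3 and 55.8 CPM in FNI and 43.2, 30.9 and 33.2 CPM with C-Gel-light, and fell by 0.68 on the log2 scale, with an SE of 0.16 and an adjusted p of 0.033 by edgeR. The libraries share depth and composition across genes, and the 6 points fall into the groups compared, so both correlations are descriptions only.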

How the data were processed

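RNA of 6 libraries of rat facial nerve tissue was enriched with oligo(dT) beads, per the labels' protocols. Per Ensembl gene ID the authors deposited raw counts, as whole numbers, and the FPKM of each library. Per the submitters' processing notes, the build was mRatBN7.2 and the tools named were STAR 2.4.2a and RSEM 1.2.29, fastp 0.22.0 with FastQC 0.11.9, and edgeR 3.28.1, with no role or order. If RSEM made the counts, they are rounded estimates. The deposited FPKM equalled count over library total and a whole-number length for the members.

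Genes were kept by filterByExpr at its minimum count of 10, which left 15581 of 22044 genes with a count, and were tested in R 4.3.3 with edgeR 4.0.16 by its quasi-likelihood F test (TMM, robust dispersion, a model of group alone, two-sided, Benjamini-Hochberg over all tested genes). The SE is the log2 fold change's size over the square root of F. Log2 CPM used a prior count of 2. Il10, removed by the filter when all libraries were used, was compared by an exact permutation test on CPM. Counting intervals are exact at 95%, two-sided, except that a count of 0 has a one-sided limit of 3 counts, and cover counting error only. The test was tried on simulated counts drawn with the dispersions and scaled library sizes that edgeR fitted to these data. The simulation thus shares the model of the test and is no check on the results given here.

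Alternatives were leaving out each library, a block for replicate number, scaling by library totals, upper quartile or RLE factors, no filter or a CPM of 1 in 3 libraries, dispersion without robust estimation, a looser threshold, limma-voom and DESeq2 1.42.0, and limma 3.58.1 on log2(FPKM + 1) or log2(FPKM + 0.1). The members and gene lists were chosen with earlier results of these data known. All found members were named, and the genes like them were the 2 IDs with the highest correlation to the most abundant member. The lists (macrophage and polarization genes, IL-10 and TGF-beta pathways, other cell types) need symbols. The RefSeq tables used here hold no Ensembl IDs, so 0 IDs matched and the lists were not tested.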

Additional observations from a re-analysis of the deposited data

How the results depend on the processing

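Fits without the filter by DESeq2, limma-voom or with the block, and the ratio of Il10 by FPKM, were chosen after seeing the data. Tgfb1 stayed below 0 in all 20 alternatives and lost its call in 6: with RLE factors (log2 fold change -0.70), by limma-voom without the filter (-0.72, adjusted p = 0.0501), and without 4 of the 6 libraries, where the range over all 6 was -0.89 to -0.56. Its adjusted p ran from 0.0045 to 0.13 over the alternatives. Arg1 had an adjusted p of 0.33 to 0.94 and changed sign once, to 0.067 without FNI replicate 3, in a range of -0.50 to 0.067 over the libraries left out. Il10 kept its direction in 14 alternatives, with 0.43 to 3.99 over the libraries left out and 1.55 to 2.16 otherwise. Of these 14 tests, only the fits without the filter could have passed, and none did. Their adjusted p ran from 0.21 (edgeR with the block) to 0.41 (edgeR without it). The others used the exact permutation test, whose p cannot fall below 0.1 with 3 against 3 libraries or fewer, so their not passing was fixed in advance. No value of Il10 was had from the filtered fits by DESeq2, limma-voom, the stricter CPM filter, no robust dispersion, the block or log2 FPKM.

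Against 2301 genes changed, DESeq2 gave 3618 (3462 without a filter), library totals 3937, log2(FPKM + 1) 3654, log2(FPKM + 0.1) 3741, an adjusted p under 0.1 gave 3876, and leaving out 1 library 797 to 1726. The shares of these calls that were higher were 16.8% and 16.9% by FPKM. The causes of these shifts were not tested.

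Whether same-numbered libraries are linked is not given in the labels. Over the tested genes, their deviations from the group means correlated at -0.063, 0.031 and 0.086, and the own number gave the best correlation for 3 of 6 libraries. These values do not settle whether a link exists. The replicate block gave 1999 genes, -0.72 for Tgfb1 (adjusted p = 0.011 by edgeR), -0.26 for Arg1 (adjusted p = 0.62 by edgeR) and, without the filter, 2.00 for Il10 (adjusted p = 0.21 by edgeR). For Tgfb1 the SE was 0.082 with the block, against 0.19 in the reported fit.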

Other observations

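Arg1 and Il10 were both highest in replicate 3 of each group. Arg1 was at 2.60 CPM in FNI replicate 3 against 1.43 and 1.5 CPM in the other FNI libraries, and at 2.03 CPM in C-Gel-light replicate 3 against 1.08 and 1.5 CPM. Il10 was at 0.421 CPM in FNI replicate 3 against 0 and 0.0715 CPM, and at 1.26 CPM in C-Gel-light replicate 3 against 0.203 and 0.239 CPM. Tgfb1 was not highest in either of these libraries: in both groups it was highest in replicate 1 (65.7 and 41.1 CPM) and lowest in replicate 2 (45.1 and 27.7 CPM). The labels do not tie replicate numbers across groups, and this pattern was noticed in the data, so it is given as values only.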
